A study of Homo sapiens with 6 samples.

Results

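The transcription factors of the SNAI, ZEB and TWIST families were described in HCT116 colorectal carcinoma cells with and without p21. They were taken as every gene of the deposited table whose symbol begins with SNAI, ZEB or TWIST and a digit, which gave 7 of 770 genes: SNAI1, SNAI2 and SNAI3, ZEB1 and ZEB2, and TWIST1 and TWIST2. Of these, 4 were above the background floor in all 6 samples (SNAI1, SNAI3, ZEB1 and TWIST1), SNAI2 was above it only in the p21-/- samples, and ZEB2 and TWIST2 were at the floor everywhere. As scaled in the deposited table, SNAI2 was at least 11.5-fold higher and ZEB1 2.25-fold higher in HCT116 p21-/- than in HCT116 WT cells. TWIST1 was 2.03-fold lower there and SNAI3 1.35-fold lower, while SNAI1 did not pass the test. The call on SNAI3 was lost when any 1 sample was left out.

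HCT116 cells were established from a human colorectal carcinoma. In the HCT116 p21-/- line both copies of CDKN1A, the gene of the cell cycle inhibitor p21, had been disrupted. RNA of 3 untreated HCT116 WT and 3 untreated HCT116 p21-/- cultures, described as biological replicates, was read out on the PanCancer Progression Panel of NanoString, where a probe pair per gene is read as a fluorescent barcode without amplification. The comparison asks which genes of cancer progression differ between cells with and without p21. The WT cells came from a cell repository and the p21-/- cells from another laboratory, the labels speak of knockout clones without saying how many were used, and the methods give DMEM for the p21-/- line where the labels give RPMI for both, so clone, source and, if the methods apply, medium cannot be told apart from genotype. CDKN1A itself read 4133, 5659 and 4312 normalized counts in replicates 1, 2 and 3 of the WT line, against 460, 409 and 388 in the p21-/- line. It was lower in every p21-/- sample, as the labels have it, and still above the floor there. Where its probes lie relative to the disrupted part is not given in the sources used here.

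SNAI and ZEB proteins are zinc finger repressors that bind E-box elements in the promoters of epithelial genes, CDH1 (E-cadherin) being the best known target. TWIST proteins are basic helix-loop-helix factors that act as dimers with E proteins such as TCF3, and ID proteins compete for those E proteins. Together these factors are known as drivers of epithelial-mesenchymal transition (EMT), in which epithelial cells lose junctions and gain mesenchymal features, and in colon cancer they have been studied in relation to invasion.

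The E-box that SNAI and ZEB factors are known for has the letters CAGGTG, which read CACCTG on the other strand. RefSeq promoter windows (build GRCh38.p14, 250 bases before to 50 after a gene start) were on hand for 3 of the 7 factors, ZEB1 with 7 windows, ZEB2 and TWIST2. Windows that hold the motif are shown for 2 junction genes that fell in p21-/- cells and for ZEB1, the factor that rose and has such a window. CLDN7 encodes a claudin and TJP3 a tight junction scaffold, and all windows are printed 5′ to 3′ on the strand of the gene with the motif on either strand in capitals.

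CLDN7, chr17:7262429-7262728, minus strand: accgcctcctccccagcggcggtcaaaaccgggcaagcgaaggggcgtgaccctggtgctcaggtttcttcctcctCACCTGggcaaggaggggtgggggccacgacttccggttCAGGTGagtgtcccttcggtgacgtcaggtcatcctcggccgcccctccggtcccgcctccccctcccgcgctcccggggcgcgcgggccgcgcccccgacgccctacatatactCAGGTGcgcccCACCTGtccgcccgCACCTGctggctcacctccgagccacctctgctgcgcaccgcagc

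TJP3, chr19:3721487-3721786, plus strand: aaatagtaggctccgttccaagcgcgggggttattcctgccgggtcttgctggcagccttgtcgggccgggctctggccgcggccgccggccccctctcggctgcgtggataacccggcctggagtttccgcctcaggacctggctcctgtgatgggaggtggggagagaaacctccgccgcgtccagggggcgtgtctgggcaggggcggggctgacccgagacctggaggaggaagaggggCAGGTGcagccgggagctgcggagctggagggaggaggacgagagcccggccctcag

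ZEB1, chr10:31318966-31319265, plus strand: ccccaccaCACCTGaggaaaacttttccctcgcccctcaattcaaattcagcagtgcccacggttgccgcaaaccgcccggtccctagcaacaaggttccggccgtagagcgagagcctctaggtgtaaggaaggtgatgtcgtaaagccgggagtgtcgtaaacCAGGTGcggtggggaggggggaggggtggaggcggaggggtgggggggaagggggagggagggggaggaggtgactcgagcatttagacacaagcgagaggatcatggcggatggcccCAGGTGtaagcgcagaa

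The CLDN7 window shown held 5 matches, whose first bases lie 174, 135, 20 and 9 bases before the start and 5 after it. The TJP3 window shown held 1, at 7 bases before the start. Each of these genes has a second window in the table, with 0 matches. The ZEB1 window shown held 3, at 242 and 85 bases before the start and 33 after it, and 2 of the 7 ZEB1 windows held the motif at all, with 4 matches in total. Neither the ZEB2 nor the TWIST2 window had these letters. The motif stood in 20.6% of all 35116 promoter windows given by RefSeq. Among the epithelial junction and polarity genes of a list given below, 13 of 21 windows held it (61.9%), and among the windows of those that fell 10 of 16 (62.5%). These windows belong to 15 of the 27 measured genes of the list, 11 of them genes that fell, and CDH1 has none. Of the 15 genes 11 held the motif, and of the 11 that fell 9 did, CLDN4 and CGN being without it. Among the mesenchymal effector genes of another list, 4 of 34 windows held it (11.8%). A match is a description of the letters in a window, and binding was not measured here.

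The floor decides what can be said of these factors, since most of them were dim. Low values in the deposited table had been replaced, sample by sample, by the mean plus 2 SD of 8 negative control probes. This floor was 29.8 to 34.9 in the WT line and 25.7 to 33.8 in the p21-/- line, so a value at it is only an upper limit. Division by the scaling factor of each sample, 1.12 to 1.51 in WT and 0.885 to 1.08 in p21-/- samples, gave back whole barcode counts, with totals of 867421 to 1187905 in the WT line against 1125125 to 1335466 in the p21-/- line. The spiked positive controls had geometric means of 1601 to 1861 counts in the WT line against 1102 to 1261 in the p21-/- line. Among the 770 genes 21.8% passed limma's test (adjusted p below 0.05) as higher and 26% as lower in p21-/- cells, and 52.2% had no overlap between the lines. Of the 7 factors 2 passed as higher, 2 as lower, and 4 had no overlap, shares close to those of the whole panel. With 3 samples against 3 an exact permutation test cannot give a two-sided p below 0.1.

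**Figure D1:**
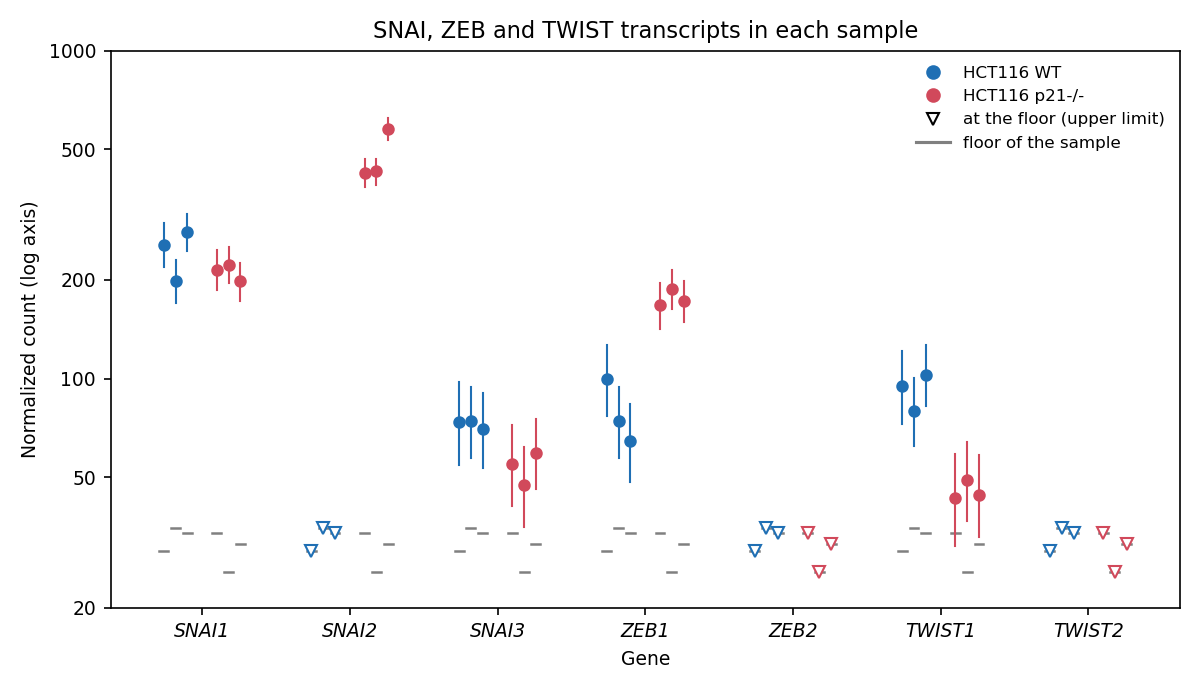
Normalized counts (log axis) of the 7 SNAI, ZEB and TWIST genes in each of 3 HCT116 WT (blue) and 3 HCT116 p21-/- (red) samples, in the order of replicates 1, 2 and 3. Vertical lines are exact 95% Poisson intervals of the barcode count (counting error only), grey dashes are the floor of each sample, and open triangles are values at the floor; SNAI2 left the floor only in p21-/- samples, where it was at 425 to 576.

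SNAI2, which encodes the repressor SLUG, had the largest change among the 5 detected factors. Every WT sample was at the floor, and p21-/- replicates 1, 2 and 3 were at 425, 429 and 576 normalized counts. All p21-/- samples were far above their floors, by 12.6 to 18.3 times, with 394, 471 and 651 barcodes. Replicate 3 was the highest of them, and the SD of the p21-/- log2 values was 0.25 where counting error alone gives 0.0656. Because WT cells have only upper limits, the change is a bound of at least 11.5-fold in the deposited scaling, and this bound moves with the scaling. It sets the p21-/- geometric mean against the highest levels that the floor values allow in WT samples. Tests with the floor as the WT level gave a limma adjusted p of 3.26e-11 and an exact permutation p of 0.1. With floor values at their upper bound limma gave an adjusted p of 5.99e-12. The fitted log2 fold change of 3.81 uses the floor as if it were the level and is no estimate of the size. In bulk RNA, more cells with the transcript and more of it per cell cannot be told apart.

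ZEB1 encodes a zinc finger and homeodomain repressor of CDH1. It was at 99.5, 74.1 and 64.3 normalized counts in replicates 1, 2 and 3 of WT cells and 167, 187 and 173 in those of p21-/- cells. All p21-/- samples lay above all WT samples. The means were 79.3 ± 18.1 (SD, n = 3) in WT and 176 ± 10.5 (SD, n = 3) in p21-/- cells. The log2 fold change was 1.16 (standard error 0.185, limma adjusted p = 5.64e-05; exact permutation p = 0.1). The WT samples were close to the floor, at 1.90 to 3.34 times it with 55 to 66 barcodes, against 155 to 206 barcodes in p21-/- samples. WT replicate 1 was the highest of its line, and the log2 SD of 0.32 in WT compares with 0.183 from counting error. ZEB1 passed the test as higher in all 19 alternative settings that were run, at log2 fold changes between 0.78 with scaling to housekeeping candidates and 2.15 with scaling to the positive controls.

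TWIST1, a basic helix-loop-helix factor, went the other way. It was at 94.9, 79.8 and 103 normalized counts in replicates 1, 2 and 3 of WT cells and 43.2, 49.2 and 44.2 in those of p21-/- cells. Every p21-/- sample lay below every WT sample. The means were 92.5 ± 11.8 (SD, n = 3) and 45.5 ± 3.20 (SD, n = 3), so that TWIST1 fell by 1.00 on the log2 scale (standard error 0.169, limma adjusted p = 1.01e-04; exact permutation p = 0.1). In p21-/- cells TWIST1 was only 1.28 to 1.92 times the floor. Its barcode counts there were 40, 54 and 50, and the brightest negative control of the same samples had 33, 25 and 31 counts. In WT cells it had 63, 71 and 88 barcodes. After the mean of the negative controls was subtracted from each sample the log2 fold change was -1.44. When samples were scaled by the positive controls, an alternative chosen after seeing the data, it was -0.019 and no longer passed, while the median of all genes above the floor moved up by 1.00.

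SNAI3, a further zinc finger factor of the SNAI family, was at 73.8, 74.1 and 70.2 normalized counts in replicates 1, 2 and 3 of WT cells and 55.0, 47.3 and 59.3 in those of p21-/- cells. The lines did not overlap. The means were 72.7 ± 2.21 (SD, n = 3) and 53.9 ± 6.06 (SD, n = 3), and the log2 fold change was -0.43 (standard error 0.164, limma adjusted p = 0.0407; exact permutation p = 0.1). This call lies close to the threshold. Leaving out any 1 of the 6 samples ended it, at adjusted p-values of 0.0576 to 0.206 from limma, and scaling to the positive controls turned the direction, at a log2 fold change of 0.55 that passed as higher (limma adjusted p = 0.00467). Before scaling, its barcode counts overlapped between the lines, with 49, 66 and 60 in WT and 51, 52 and 67 in p21-/- samples.

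SNAI1, which encodes SNAIL, was at 256, 199 and 279 normalized counts in replicates 1, 2 and 3 of WT cells and 215, 222 and 198 in those of p21-/- cells. WT replicate 2 lay within the p21-/- range and the other WT samples above it. The means were 245 ± 41.5 (SD, n = 3) and 212 ± 12.2 (SD, n = 3), and the log2 fold change of -0.20 (standard error 0.159) did not pass (limma adjusted p = 0.392; exact permutation p = 0.3). Its sign depended on the scaling between samples. It was -0.58 with scaling to housekeeping candidates, where it passed as lower, and 0.80 with scaling to the positive controls, where it passed as higher. With median scaling, quantile normalization or no scaling it was between 0.017 and 0.20 and did not pass.

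ZEB2 and TWIST2, the paralogs of ZEB1 and TWIST1, were at the floor in all 6 samples. Their level was therefore not detectable on this panel in either line, at limits of 39.2 to 44.9 normalized counts in WT and 25.7 to 36.5 in p21-/- samples once the scaling of the floor is allowed for. No fold change can be given. Whether ZEB2 or TWIST2 changed below the floor was not tested.

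**Figure D2:**
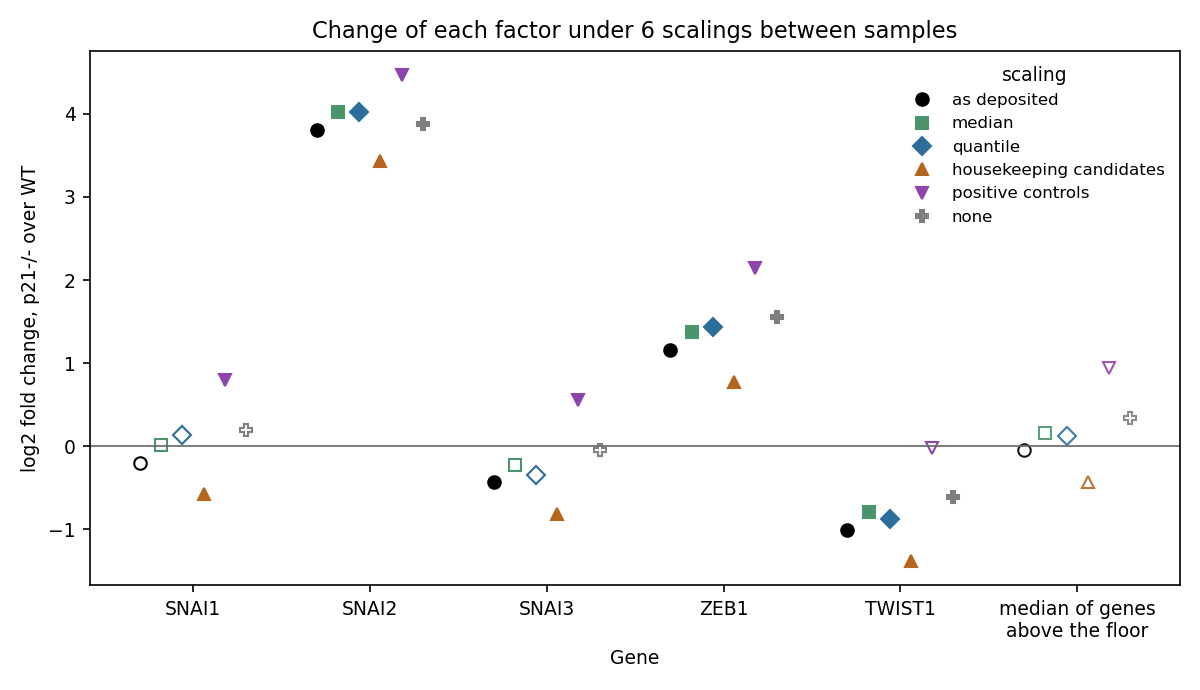
Log2 fold change (p21-/- over WT) of the 5 factors above the floor in at least 1 line, and the median over genes above the floor in all samples, under 6 scalings between samples. Filled markers passed limma's test at an adjusted p below 0.05, and open markers of the 5 factors did not (the median carries no test); SNAI2 and ZEB1 stayed above 0 under every scaling, TWIST1 below it, and SNAI1 and SNAI3 crossed it.

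The median of all genes above the floor in all samples moved with the scaling, by 0.21 on the log2 scale with median scaling, 0.18 with quantile normalization, -0.38 with scaling to 30 housekeeping candidates and 0.39 with no scaling. Taken relative to this shift, the change of ZEB1 was 1.15 to 1.25, that of TWIST1 was between -1.06 and -0.997 and that of SNAI3 was -0.52 to -0.43 in all 6 scalings. That of SNAI1 was -0.20 in all of them but quantile normalization, where it was -0.043. All scalings but quantile normalization multiply each sample as a whole, so their agreement here was fixed in advance and is no test of the calls. Of the 30 housekeeping candidates 19 passed the test as higher and 3 as lower in p21-/- cells in the deposited scaling, beside 21.8% and 26% of the panel, with a median log2 fold change of 0.38. The deposited scaling therefore differs from one that sets these candidates level between the lines, and the table does not mark which housekeeping genes were used for it.

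A ratio of 2 genes above the floor within a sample is free of any factor applied to the whole sample. Its size has no meaning across different probes, so only its change between the lines was compared, for 10 pairs of the 5 detected factors. TWIST1 over ZEB1 was 0.955, 1.08 and 1.60 in replicates 1, 2 and 3 of WT cells and 0.258, 0.262 and 0.256 in those of p21-/- cells. The change was -2.16 on the log2 scale. The SD of 0.0150 between p21-/- samples is smaller than the 0.236 that counting error alone gives. An ordinary linear model over the ratios of all 769 other genes to ZEB1 gave an adjusted p of 0.00637. SNAI2 has only upper limits in WT cells, so no change or model p of its ratios is given. SNAI1 over TWIST1 was 2.70, 2.49 and 2.72 in WT replicates 1, 2 and 3 against 4.98, 4.52 and 4.48 in the p21-/- replicates, a change of 0.81 (adjusted p = 0.00180).

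Of the factors above the floor in all samples, the same models called 3 of 3 others against ZEB1, where 81.4% of all genes were called, and 2 of 3 against TWIST1, where 83.9% were. SNAI3 against TWIST1 missed the threshold, at a change of 0.57 and an adjusted p of 0.0502. By exact permutation 9 of the 10 pairs, 4 of them with SNAI2 at its WT limits, gave p = 0.1, or 0.111 after Benjamini-Hochberg adjustment over the pairs, and SNAI1 over SNAI3 gave 0.5. Limma on the same ratio table gave an adjusted p of 4.12e-10 for TWIST1 over ZEB1, which is too small because all ratios in a table share the replicate error of the gene in the denominator.

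**Figure D3:**
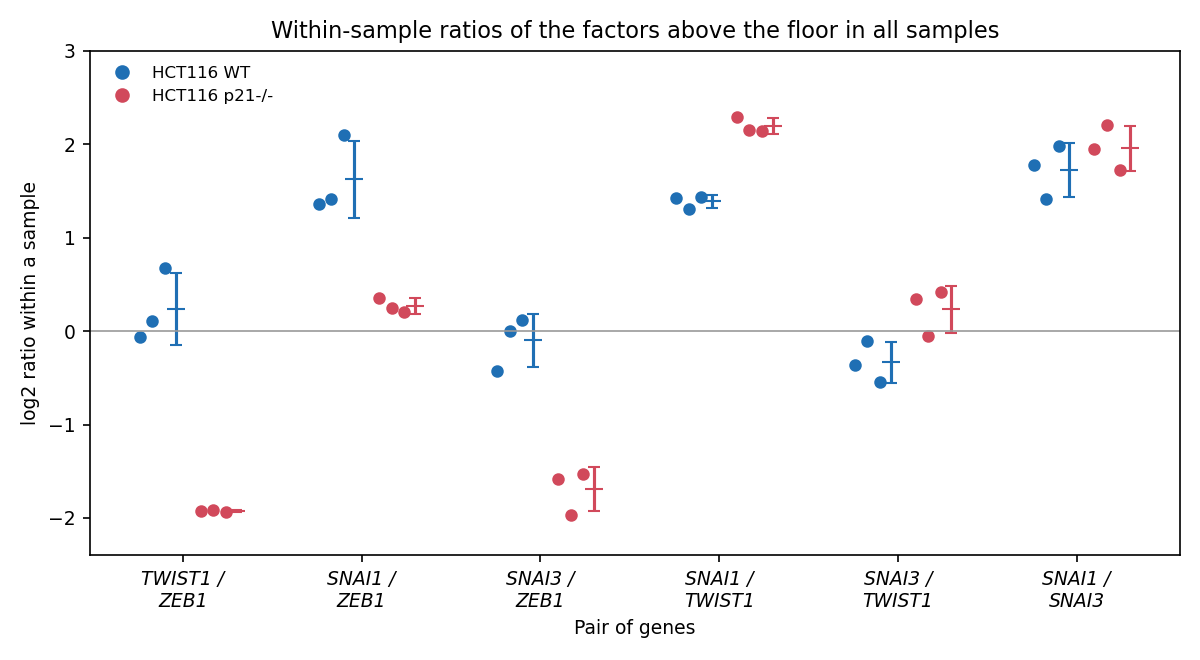
Log2 ratio within each sample for 6 pairs of the factors above the floor in all samples, in HCT116 WT (blue) and HCT116 p21-/- (red), with the mean and SD (n = 3) beside the points. TWIST1 over ZEB1 fell from a mean of 0.24 in WT to -1.93 in p21-/- samples, and SNAI1 over SNAI3 overlapped between the lines.

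Genes that act with these factors were read from lists of partners and inhibitors. Of 11 measured members, 5 passed as higher and 2 as lower in p21-/- cells, beside 21.8% and 26% of the panel, and TCF4 and ID4 were at the floor in all samples. The counts were 1 higher and 6 lower with scaling to housekeeping candidates, and 9 and 1 with scaling to the positive controls. TCF4 and ID4, where only the floors are compared, count as lower with the former and as higher with the latter. TCF3, which encodes the E proteins E12 and E47, rose from 316 ± 9.97 to 459 ± 7.57 normalized counts (SD, n = 3), a log2 fold change of 0.54 (limma adjusted p = 0.00113). ID2, an inhibitor of E proteins, was at 3977, 4172 and 4500 in replicates 1, 2 and 3 of WT cells and 220, 177 and 182 in those of p21-/- cells, and fell by 4.44 on the log2 scale (limma adjusted p = 1.55e-14). ID1 fell by 1.29 (limma adjusted p = 2.07e-08). TCF3 did not pass with scaling to housekeeping candidates (log2 fold change 0.15), nor ID1 with scaling to the positive controls (-0.29). CREBBP, an acetyltransferase, rose by 1.02 (limma adjusted p = 4.49e-07) and JUN, an AP-1 subunit, by 0.96 (limma adjusted p = 0.0122), with WT values of JUN from 225 to 757.

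Among 4 measured epithelial regulators, which oppose EMT factors, 3 fell and 1 rose, where 26% of the panel passed as lower and 21.8% as higher. The log2 fold change was -3.32 for ELF3 (an ETS family factor), -2.70 for GRHL2 (a grainyhead factor) and -1.79 for ESRP1 (an epithelial splicing regulator), with limma adjusted p-values of 1.90e-13, 2.38e-09 and 5.40e-11. GRHL2 was at the floor in 1 p21-/- sample. OVOL2, a zinc finger repressor known to act on ZEB1, was at 164, 155 and 126 in replicates 1, 2 and 3 of WT cells and 594, 542 and 554 in those of p21-/- cells, a rise of 1.92 (limma adjusted p = 1.06e-08). It rose in the same samples as ZEB1, against the other 3 regulators. A list of mesenchymal transcription factors leaves out SNAI2, ZEB1 and TWIST1, and 4 of its 7 measured genes are SNAI, ZEB or TWIST genes already described. FOXC2 and TCF4 were at the floor in all samples. SOX9 was at a log2 fold change of 0.16 and did not pass (limma adjusted p = 0.261), but it passed as higher with median scaling (0.38), quantile normalization (0.44), no scaling (0.56) and scaling to the positive controls (1.16), and it was at -0.22 with scaling to housekeeping candidates, without passing.

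**Figure D4:**
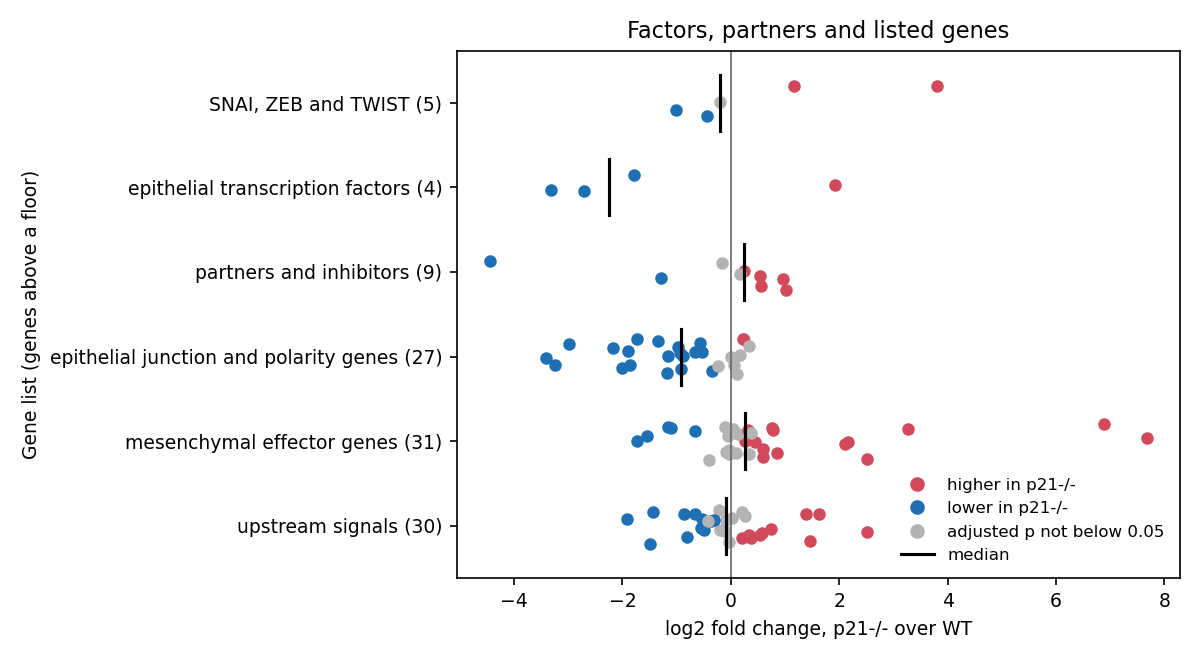
Log2 fold change (p21-/- over WT) of the 5 detected SNAI, ZEB and TWIST genes and of 5 gene lists, for genes above the floor in at least 1 sample (number in brackets), with the median of each list as a black line. Red and blue points passed limma's test as higher and as lower in p21-/- cells, and grey points did not; the junction list lies mostly below 0, with a median of -0.91, and the 5 factors lie on both sides.

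In the list of epithelial junction and polarity genes, the class that SNAI and ZEB factors are known to repress, 19 of 27 measured genes fell, 1 rose and 7 did not pass, where 26% of the panel passed as lower and 21.8% as higher. The counts were 23 lower and 0 higher with scaling to housekeeping candidates, 18 and 5 with median scaling, 18 and 4 with quantile normalization and 13 and 4 with no scaling, and the balance turned to 8 lower and 10 higher with scaling to the positive controls. The median log2 fold change of the list was -0.91 in the deposited scaling, beside a median of -0.0048 over all genes above the floor in at least 1 sample. CDH1 was at 2254, 2874 and 2933 normalized counts in replicates 1, 2 and 3 of WT cells and 271, 284 and 294 in those of p21-/- cells, a log2 fold change of -3.23 (limma adjusted p = 9.20e-13). Log2 fold changes were -3.41 for PPL (periplakin), -2.99 for TJP3 and -2.17 for CLDN7 (limma adjusted p-values of 5.51e-13, 3.26e-11 and 1.29e-10). EPCAM, an epithelial adhesion molecule, was the gene that rose, by 0.22 (limma adjusted p = 0.0444). It did not pass when WT replicate 2 or any p21-/- replicate was left out, nor with scaling to housekeeping candidates. Nor did it pass with a constant prior variance in limma, an ordinary linear model or the replicate number as a block.

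In the list of mesenchymal effector genes 14 of 39 passed as higher, 5 as lower and 20 did not pass, where 21.8% and 26% of the panel passed, with a median of 0.25 over those above a floor. The counts were 9 higher and 20 lower with scaling to housekeeping candidates, 11 and 16 with background subtraction and 33 and 1 with scaling to the positive controls. All of them include the 8 genes of the list at the floor in all samples, where only the floors are compared. Those genes count as higher with the positive controls and as lower in the other settings named here. VIM, which encodes vimentin, rose by 7.68 (limma adjusted p = 1.56e-16), SPARC, a matricellular protein, by 6.89 (limma adjusted p = 1.19e-14), NRP1 (neuropilin) by 3.26 and FN1 (fibronectin) by 0.76 (limma adjusted p-values of 1.75e-11 and 7.63e-04). SPARC was at the floor in 2 WT samples. CDH2 (N-cadherin) was at the floor in all 6 samples. WNT5A left the floor only in p21-/- samples, at 169, 199 and 208 in replicates 1, 2 and 3, at least 4.65-fold higher in the deposited scaling. Its limma adjusted p of 3.33e-09 takes the floor as the WT level and does not test that bound.

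Among 33 measured genes of the signals that act upstream of these factors, 10 passed as higher, 11 as lower and 12 did not pass, where 21.8% and 26% of the panel passed, with a median of -0.096 over those above a floor. The counts were 6 higher and 22 lower with scaling to housekeeping candidates and 26 and 2 with scaling to the positive controls. WNT5B, HGF and TNF, at the floor in all samples, count as lower with the former and as higher with the latter, where only the floors are compared. FGF2, a fibroblast growth factor, rose by 1.64 (limma adjusted p = 1.13e-08). The log2 fold change was -1.92 for JAG1, a Notch ligand, and -1.48 for MET, the receptor of hepatocyte growth factor (limma adjusted p-values of 6.51e-08 and 3.86e-10).

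Of 3 measured colon epithelium markers (EPCAM, CDH1 and KRT19) all were above the floor in all 6 samples, with a summed level of 14954 to 17645 in WT and 11812 to 12357 in p21-/- samples. PTPRC and ITGAM, the measured leukocyte markers, were at the floor in all samples, and so were KDR and TEK of the 3 endothelium markers. PECAM1, the third, was at the floor in WT samples and in p21-/- replicate 3, and at 41.0 and 27.3 in p21-/- replicates 1 and 2. Of 6 fibroblast markers only COL1A1 was above the floor in all samples, and it was lower in p21-/- cells. PDGFRB was at the floor in every WT sample and at 43.7 to 55.0 in p21-/- samples, at least 1.22-fold higher in the deposited scaling. Its limma adjusted p of 0.00376 takes the floor as the WT level and does not test that bound. The other 5 were at the floor in every WT sample, LUM in all 6 samples, so the sum over the fibroblast markers, 359 to 410 in WT and 228 to 266 in p21-/- samples, holds floor values and is no level. COL1A1 alone was at 193 to 241 in WT and 60.2 to 65.8 in p21-/- samples.

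For each detected factor, the 5 genes of most similar pattern were found over the 6 samples, by the root mean square difference of centred log2 values among 527 genes above the floor in at least 3 samples. For ZEB1 these were MTBP, THBS4, HOXA7, NCL and GPATCH3, at differences of 0.0690 to 0.185, where the median over all compared genes was 0.663. THBS4 and HOXA7 were above the floor in only 1 WT sample each. For TWIST1 they included ST14, DSC2, RRAS and ADAM15, at 0.0834 to 0.101 against a median of 0.577. For SNAI2 they were APOE, NRP1, HLA-DPB1, PLA2G3 and ISL1, at 0.243 to 0.613 against a median of 1.92, where the floor sets the WT values of SNAI2. The floor also sets every WT value of PLA2G3 and that of APOE in WT replicate 1. For SNAI3 they were ZCCHC24, RPS27A, RBPJ, RB1 and F11R, at 0.0853 to 0.118 against 0.394. For SNAI1 they were RBL2, ELK3, RBM47, HK2 and PNPLA6, at 0.0841 to 0.121 against 0.378.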

How the data were processed

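The NanoString panel was run on 100 ng of total RNA from each of 3 HCT116 WT and 3 HCT116 p21-/- cultures, and samples were grouped by the genotype in their labels. The deposited gene values are a signal, barcode counts that the authors normalized, by their methods, in nSolver 3 to positive controls and housekeeping genes that the table does not mark, with low values set to a floor per sample. Control probes are raw counts. The authors' NanoStringDiff test needs raw counts and was not run. The scaling factor of each sample was found from values above the floor and under 500, of which 100% came out as whole barcode counts within 0.1 count, and larger values were divided by the same factor and rounded. Differences were tested by limma (version 3.58.1, R 4.3.3), fitted to log2(value + 1) of all 770 genes without a filter on low values (lmFit, then eBayes with an intensity trend; two-sided; Benjamini-Hochberg), so log2 fold changes understate those of low genes. The fit was tested on simulated data in which both lines had the replicate spread of the p21-/- samples. That spread is smaller than in WT samples (median log2 SD 0.063 against 0.161), so the larger WT spread was not covered. Intervals are exact Poisson intervals and cover counting error only. Samples are replicates as labelled, and p-values measure only the spread between them.

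Named genes are all SNAI, ZEB and TWIST rows, CDKN1A, CDH1, CDH2, VIM, FN1, ID1 to ID4, TCF3, TCF4, TCF12, GRHL2, ESRP1 and OVOL2 where measured (ID3 and TCF12 were not in the table), the 4 genes of each list with the largest change among called, non-overlapping genes (adjusted p below 0.05) with a mean of at least 20, and 5 genes most like each factor. The members and lists were chosen with earlier results of these data known. There were 19 alternatives, 2 of them chosen after seeing the data (positive control scaling and no scaling). The result of 1 gene among those most like a factor is not reported here.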

Additional observations from a re-analysis of the deposited data

How the results depend on the processing

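SNAI2 and ZEB1 kept their direction and their call in all 19 alternatives, at log2 fold changes of 3.43 to 4.47 and 0.78 to 2.15. The change of TWIST1 over ZEB1 stayed between -2.86 and -1.95, and the ordinary linear model that tested it was run in the deposited scaling alone. TWIST1 kept its call in 18 (-1.44 to -0.61) and lost the call with positive control scaling, at -0.019. SNAI3 lost its call with median scaling (-0.22), quantile normalization (-0.35) and no scaling (-0.042) and when any 1 sample was left out (-0.50 to -0.34), and it turned to 0.55 with positive control scaling, where it passed as higher. SNAI1 turned to 0.017 with median scaling, 0.13 with quantile normalization, 0.80 with positive control scaling and 0.20 with no scaling, and it passed at -0.58 with scaling to housekeeping candidates. Positive control scaling and no scaling were chosen after seeing the data. With the replicate number as a replicate block SNAI3 kept its log2 fold change of -0.43 but not its call (limma adjusted p = 0.0820), and the other calls on the factors stood. Same-numbered samples deviated together by correlations of 0.076, -0.054 and 0.052, where differently numbered ones had -0.109 to 0.082. No pairing by number was seen, but 3 samples per line cannot exclude it.

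Of all genes, 168 passed as higher and 200 as lower in p21-/- cells. The counts were 97 higher and 529 lower with scaling to housekeeping candidates, 605 and 60 with positive control scaling, and 212 and 109 with no scaling. Median scaling gave 251 and 169 and quantile normalization 214 and 155. Background subtraction gave 420 lower genes and floor values at their upper bound gave 392. The 167 genes at the floor in all samples, ZEB2 and TWIST2 among them, passed as lower in these settings and with scaling to housekeeping candidates, and as higher with positive control scaling, which compare only the floors of the lines. Leaving out 1 sample gave 143 to 177 higher and 187 to 219 lower genes. In the junction list 13 to 23 genes fell and 0 to 5 rose in 18 alternatives, against 8 and 10 with positive control scaling. The cause of the other changes was not tested. The floor limits SNAI2 in WT, ZEB2 and TWIST2 to bounds, and TWIST1 in p21-/- cells rests on 40 to 54 barcodes per sample.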
